A study of Arabidopsis thaliana with 18 samples.

Results

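Glutathione transferases of Arabidopsis thaliana were followed in rosette leaves of watered and droughted plants with normal, lowered or raised expression of JAR1. The members were all entries named GST with the class letter U (tau), F (phi), L (lambda), T (theta) or Z (zeta) and a number, which gave 45 of the 27655 genes counted. Tau held 27 of them, phi 11, lambda 3, theta 3 and zeta 1. At least 20 reads over the 18 libraries were required for a test, and 39 members passed, of which 24 were tau, 9 phi, 3 lambda and 3 theta. GSTU14, GSTU15, GSTU22, GSTF13, GSTF14 and GSTZ2 had 4 to 12 reads in all and were not tested. GSTU2, GSTU25 and GSTU28 passed only through the reads of their highest group.

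Glutathione transferases join the tripeptide glutathione to electrophilic compounds, or bind such compounds without reacting with them, and the conjugates are moved into the vacuole by ABC transporters. Tau and phi are the large plant classes, known for detoxification of herbicides and stress products and for steps of secondary metabolism. Theta members have peroxidase activity, zeta members act in tyrosine breakdown, and lambda members carry an active-site cysteine and act as thiol transferases. JAR1 joins jasmonic acid to isoleucine, which gives the active form of the hormone, and JAR1 is known to bind the tau member GSTU20, also called FIP1.

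The libraries came from leaves of plants aged 32 days, in 6 groups of 3. The genotypes were wild-type Col-0 (WT), the JAR1 knockdown line SALK_034543 (jar1-11) and an overexpression line of JAR1.1 (JAR1-OE). After 18 days of regular watering, plants were watered on (control) or left dry for up to 14 days (drought). The sources used here do not give the promoter of the transgene, the number of independent lines or the number of plants per sample. Libraries were QuantSeq 3' tags, so a level is a count of transcript ends per 1e6 gene reads (CPM) with TMM scaling, and it is not divided by gene length.

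Library totals ran from 4716155 to 9506727 gene reads, so 3 reads were worth 0.316 to 0.636 CPM. JAR1 stood at 22.2 to 30.3 CPM in watered WT and at 5.25 to 6.66 CPM in watered jar1-11, a log2 difference of -2.14 ± 0.24 (edgeR adjusted p = 5.93e-04). In JAR1-OE the JAR1 locus did not pass the test against WT in either condition (adjusted p = 0.774 watered and 0.98 dry by edgeR), and the separate YFP-JAR1 entry held 26 to 558 reads per JAR1-OE library and 0 reads in the 12 others. All 5 leaf markers were read in every library, with summed levels of 12130 to 14475 CPM in watered WT, 5521 to 6671 in dry WT, 10530 to 14197 in watered jar1-11, 1316 to 2408 in dry jar1-11, 25383 to 30795 in watered JAR1-OE and 14534 to 19544 in dry JAR1-OE. The 7 flower markers summed to 41.1 CPM in WT drought 1, against 0.253 and 0.308 in the other dry WT libraries, and to 12.3 to 39.9 CPM in dry JAR1-OE. They were at most 5.75 CPM elsewhere. The jar1-11 drought 2 library stood apart from its replicates in several members, as the values below show. For drought within jar1-11 and for jar1-11 against WT, the value or adjusted p without it is given beside each printed fold change whose call it ended or added, or which it moved by over 1.5 times. The list of flagged results gives the adjusted p only, for calls that ended. The part of leaf markers, flower markers and single libraries in the results was not tested, and fewer cells of a type cannot be told apart from less RNA per cell in these bulk samples.

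Most members lay next to another. With a gap of at most 10000 bases, 31 members fell into 12 arrays and 14 lay alone. The largest array, on chromosome 2 of TAIR10.1 (12617936 to 12632538, minus strand), held the 7 tau members GSTU7, GSTU6, GSTU5, GSTU4, GSTU3, GSTU2 and GSTU1. Most members nonetheless had a distinct 3' end. All 50-base words of the last 500 transcript bases were unique in the genome for 42 of 45 members. The exceptions were GSTF6, GSTT2 and GSTT3, of which GSTT3 was lowest at 81.2%. Whether the deposited counts separate neighbours was not tested, since the aligner and counter are not given. The gene models of GSTU18 and GSTU17 overlap by 71 bases on chromosome 1 (3396883 to 3396953), and their counts are uncertain for that reason.

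The 250 bases before the annotated start are shown for 5 tau members chosen after their values were seen. GSTU9 and GSTU27 were called in opposite directions in every genotype, GSTU19 and GSTU20 are neighbours that differed in WT and jar1-11, and GSTU17 was clear of its watered libraries in JAR1-OE. They were read from RefSeq TAIR10.1 and run 5′ to 3′ on the gene's strand. Capitals mark TGACG, the core bound by TGA bZIP factors (CGTCA on the other strand), and ACGTG, the core of the abscisic acid response element (CACGT on the other strand).
GSTU9 (chr5:25089627-25089876, minus strand): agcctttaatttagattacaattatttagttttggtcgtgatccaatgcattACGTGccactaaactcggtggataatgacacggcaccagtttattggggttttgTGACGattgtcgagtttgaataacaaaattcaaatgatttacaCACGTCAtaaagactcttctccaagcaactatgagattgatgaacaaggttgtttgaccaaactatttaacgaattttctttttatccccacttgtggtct
GSTU17 (chr1:3398359-3398608, minus strand): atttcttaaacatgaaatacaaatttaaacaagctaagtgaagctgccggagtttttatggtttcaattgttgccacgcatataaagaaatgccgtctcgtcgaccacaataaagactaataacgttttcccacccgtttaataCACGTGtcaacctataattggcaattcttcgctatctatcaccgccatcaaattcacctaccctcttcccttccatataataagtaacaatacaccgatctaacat
GSTU19 (chr1:29488008-29488257, minus strand): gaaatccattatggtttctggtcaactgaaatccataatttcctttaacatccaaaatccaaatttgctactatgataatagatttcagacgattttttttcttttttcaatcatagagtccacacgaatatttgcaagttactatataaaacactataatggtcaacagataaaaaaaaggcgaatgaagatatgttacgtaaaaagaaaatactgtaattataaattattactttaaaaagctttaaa
GSTU20 (chr1:29485390-29485639, minus strand): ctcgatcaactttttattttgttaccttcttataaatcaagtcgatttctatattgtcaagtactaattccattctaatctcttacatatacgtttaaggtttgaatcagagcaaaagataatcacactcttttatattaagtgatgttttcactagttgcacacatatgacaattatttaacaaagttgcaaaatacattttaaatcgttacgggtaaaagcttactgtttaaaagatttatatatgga
GSTU27 (chr3:15660520-15660769, plus strand): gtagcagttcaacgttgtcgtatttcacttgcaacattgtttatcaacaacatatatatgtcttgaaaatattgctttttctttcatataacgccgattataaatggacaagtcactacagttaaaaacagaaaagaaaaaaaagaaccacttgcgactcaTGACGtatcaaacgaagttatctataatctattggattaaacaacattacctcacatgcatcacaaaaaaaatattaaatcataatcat

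GSTU9 held both motifs, and in its last run of capitals CACGT and CGTCA overlap. GSTU17 held CACGTG, which contains ACGTG on each strand. GSTU27 held TGACG alone, and the neighbours GSTU19 and GSTU20 held neither string in this window. Over the family TGACG was found in 15 of 45 windows (33.3%), against 18.6% of 27443 windows of the same length, ACGTG in 17 (37.8%) against 22.9%, and CACGTG in 4 (8.9%) against 6.5%. These are matches of letters and not sites of binding.

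As a class, tau members took a larger share of the family's reads under drought, and most so in jar1-11. Summed over the 27 members, tau stood at 1496, 1268 and 1379 CPM in watered WT and at 1584, 2673 and 2100 CPM in dry WT. In jar1-11 the sums were 1254, 1341 and 1291 CPM watered and 4865, 9122 and 4328 CPM dry, and in JAR1-OE 1323, 1201 and 1239 CPM watered and 2318, 2185 and 1837 CPM dry. In each genotype the dry libraries all lay above the watered ones, and the dry jar1-11 libraries lay above all others, with jar1-11 drought 2 the highest. The tau share of the family's reads was 16.0 to 18.7% in watered WT and 20.3 to 28.0% dry, 13.3 to 16.1% and 39.8 to 48.4% in jar1-11, and 16.5 to 18.4% and 20.2 to 25.2% in JAR1-OE. GSTU19 alone gave 50.9 to 75.4% of the tau reads, and without it the tau sum was 508 to 566 CPM watered and 1326 to 2244 CPM dry in jar1-11, and 539 to 582 CPM watered and 756 to 1017 CPM dry in JAR1-OE. In WT, at 597 to 735 CPM watered and 586 to 985 CPM dry, the groups then overlapped. Phi sums overlapped between conditions in WT and jar1-11, at 6282 to 6857 CPM watered and 5974 to 6590 CPM dry in WT, and 6761 to 7934 CPM watered and 5690 to 9427 CPM dry in jar1-11. In JAR1-OE they were 5690 to 5993 CPM watered and 6632 to 7053 CPM dry. GSTF9, GSTF10 and GSTF2 made up 75.3 to 93.8% of the phi reads. The other phi members summed to 759 to 951 CPM watered and 370 to 578 CPM dry in WT, 728 to 956 CPM watered and 988 to 2329 CPM dry in jar1-11, and 629 to 730 CPM watered and 541 to 581 CPM dry in JAR1-OE. Dry libraries thus lay below watered ones in WT and JAR1-OE and above them in jar1-11. These sums are descriptions and carry no test.

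**Figure D1:**
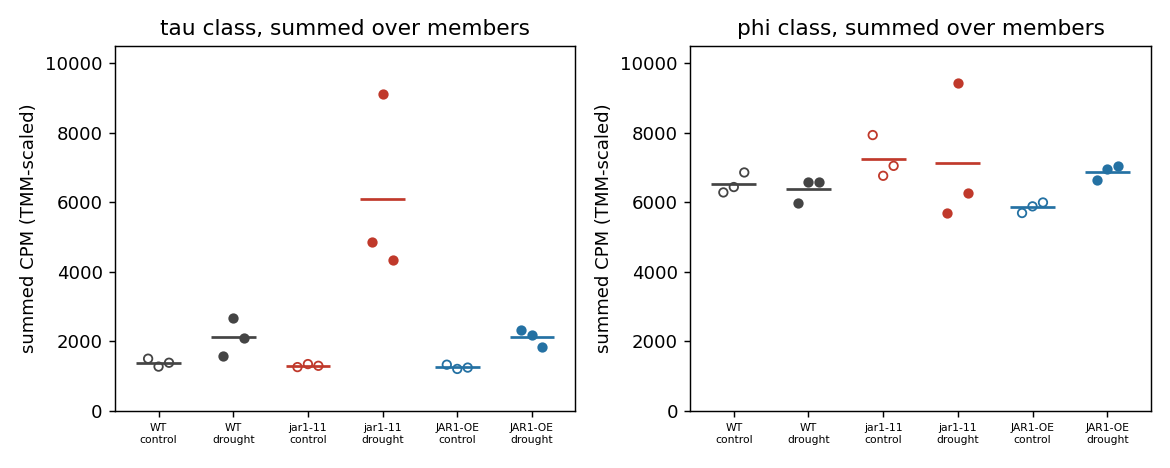
Summed level of the tau class (left) and the phi class (right) in CPM, 3 libraries per group (open circles watered, filled circles dry) with the group mean as a line. Dry jar1-11 lies highest in tau, between 4328 and 9122 CPM, while the phi sums of WT and jar1-11 overlap between conditions.

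Under drought 19 of 39 tested members passed the edgeR threshold (adjusted p under 0.05) in WT, or 48.7% against 35.4% of all 19752 genes tested. Of these 11 were higher (16.6% of all genes were) and 8 lower (18.8%). In jar1-11 24 members passed, or 61.5% against 53.5%, with 17 higher (25.9% of all genes) and 7 lower (27.7%). The 17 include GSTU2 and GSTU28. These were tested only because of their reads in dry jar1-11, which favours a difference there. Without them and GSTU25, 22 of 36 passed (61.1%), 15 higher, of which 10 were tau. In JAR1-OE 16 passed, or 41% against 26%, with 12 higher (12.4% of all genes) and 4 lower (13.6%). The tau class gave 7 higher and 5 lower in WT, 12 and 5 in jar1-11 and 7 and 1 in JAR1-OE, with median log2 fold changes of 0.55, 1.29 and 0.68. The JAR1-OE tau median was 0.39 when members with an empty group took their bound. The tau medians without GSTU2, GSTU25 and GSTU28 were 0.39 in WT, 1.24 in jar1-11 and 0.57 in JAR1-OE. The phi class gave 3 higher and 3 lower in WT, 3 and 2 in jar1-11 and 3 and 3 in JAR1-OE, with medians of -0.67, -0.01 and -0.22, and the medians over all genes were 0.00, -0.03 and 0.00. Of these calls 10 of 19 in WT, 22 of 24 in jar1-11 and 8 of 16 in JAR1-OE were made whichever single library was left out. The 22 include GSTU28, whose reads in dry jar1-11 admitted it to the test, so its call adds no support. The JAR1-OE count fell to 10 without JAR1-OE control 2, 9 without JAR1-OE control 3 and 10 without JAR1-OE drought 2. Across the genotypes 6 members were higher in all 3 (15.4%, against 6.72% of all genes) and 2 were lower in all 3 (5.13%, against 8.11%). Of these 8, GSTU4, GSTF12 and GSTU27 were called in all 3 genotypes whichever library was left out. GSTU3, GSTU9, GSTU19, GSTT1 and GSTF8 belong to the sets through a call that the loss of 1 library ended. GSTF11 moved in opposite directions in jar1-11 and JAR1-OE, and 7 passed in none.

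**Figure D2:**
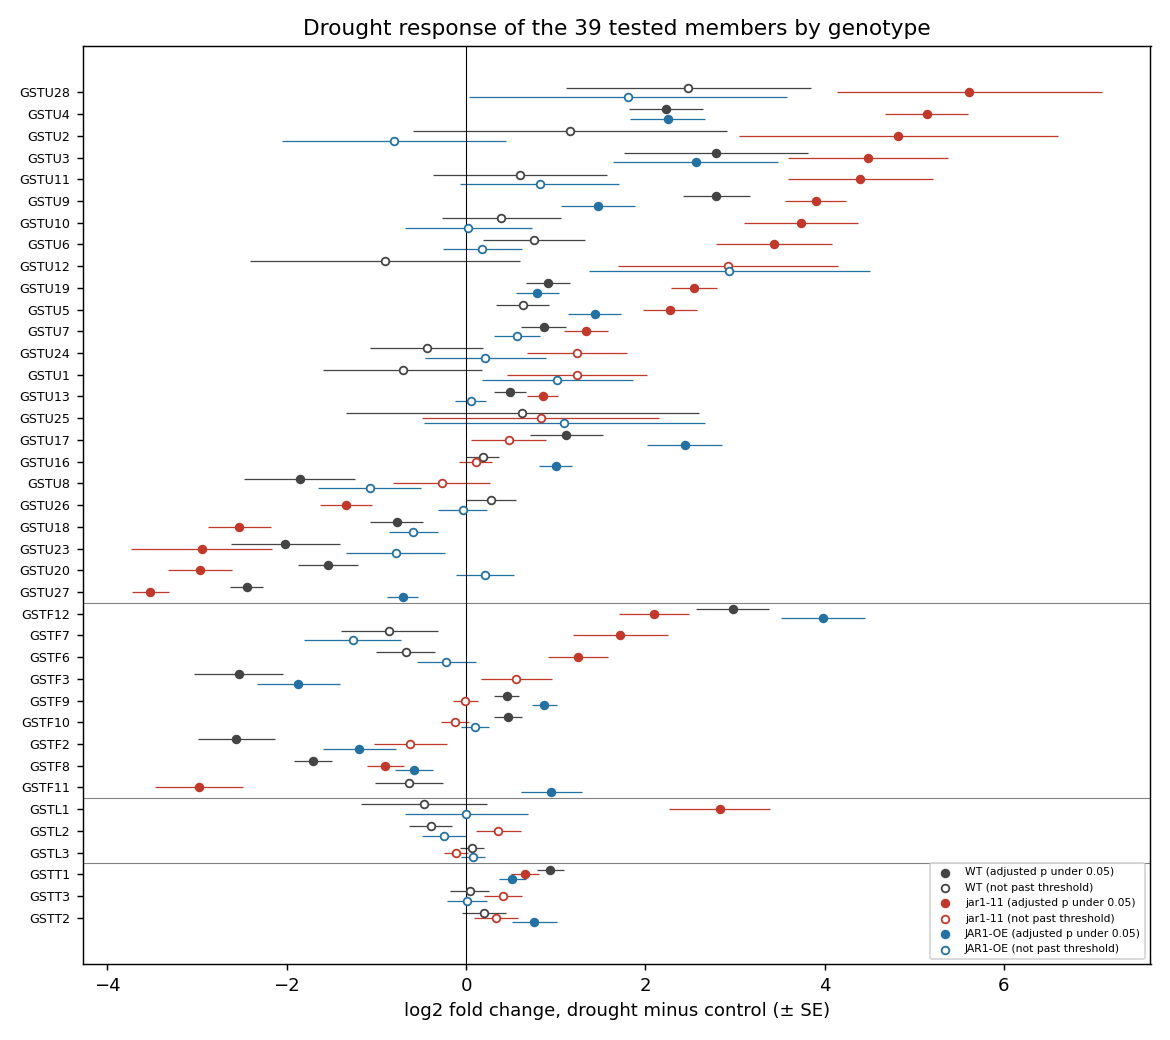
Log2 fold change of drought against control with its SE for the 39 tested members in WT (grey), jar1-11 (red) and JAR1-OE (blue), by class from tau at the top through phi and lambda to theta. Filled points passed the edgeR threshold; GSTU28, GSTU2, GSTU25 and GSTU12 rest on few reads and their fitted values are not bounds.

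GSTU19, an abundant conjugating enzyme and the most abundant tau member in these leaves, rose with drought in all 3 genotypes. Its level was 761, 671 and 723 CPM in watered WT and 998, 1688 and 1386 CPM in dry WT. In jar1-11 it was 746, 775 and 741 CPM watered and 3265, 6877 and 3002 CPM dry, and in JAR1-OE 742, 662 and 670.3 CPM watered and 1353, 1168 and 1081 CPM dry. Watered and dry libraries did not overlap in any genotype, and the 3 dry jar1-11 libraries exceeded every other. The log2 fold change was 0.92 ± 0.24 in WT (edgeR adjusted p = 0.00625), 2.54 ± 0.26 in jar1-11 (adjusted p = 1.01e-07 by edgeR) and 0.80 ± 0.24 in JAR1-OE (adjusted p = 0.0208 by edgeR). The last call ended without JAR1-OE drought 1 (0.0765), JAR1-OE control 3 (0.0674) or JAR1-OE control 2 (0.0625), the edgeR adjusted p in brackets. The response in jar1-11 exceeded that of WT by 1.62 ± 0.35 on the log2 scale (edgeR adjusted p = 0.00556).

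GSTU20, the neighbour of GSTU19 on the same strand, acts in aliphatic glucosinolate synthesis besides binding JAR1. It stood at 273, 191 and 207 CPM in watered WT and 105, 64.3 and 60.9 CPM in dry WT. In jar1-11 it fell from 159, 206 and 153 CPM watered to 22.4, 8.15 and 36.8 CPM dry. In JAR1-OE it was 263, 179 and 278 CPM watered and 259, 314 and 258 CPM dry, and these ranges overlapped. Drought log2 fold changes were -1.54 ± 0.33 in WT (edgeR adjusted p = 0.0012) and -2.97 ± 0.36 in jar1-11 (edgeR adjusted p = 1.06e-06), while JAR1-OE at 0.21 ± 0.32 did not pass (edgeR adjusted p = 0.688). Under drought GSTU20 differed from WT by -1.80 ± 0.35 in jar1-11 and by 1.85 ± 0.34 in JAR1-OE on the log2 scale, with edgeR adjusted p of 8.30e-04 and 9.71e-04. The response of JAR1-OE differed from that of WT by 1.75 ± 0.46 (edgeR adjusted p = 0.0345), a call that ended without JAR1-OE drought 3 (0.0517), JAR1-OE drought 2 (0.0786), JAR1-OE drought 1 (0.0583), JAR1-OE control 3 (0.0564), JAR1-OE control 2 (0.0796), JAR1-OE control 1 (0.0638), WT drought 3 (0.0882), WT drought 2 (0.0811) or WT control 1 (0.0747). Leaf marker sums were likewise lowest in dry jar1-11 and highest, among dry groups, in JAR1-OE.

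GSTU17 (also ERD9), whose loss is known to raise drought tolerance, and its neighbour GSTU18 gave another contrast. GSTU17 was 14.2, 12.3 and 21.7 CPM in watered WT and 24.2, 66.6 and 13.7 CPM in dry WT, 17.4, 11.9 and 9.83 CPM in watered and 25.8, 16.0 and 12.9 CPM in dry jar1-11, and 13.9, 11.5 and 10.5 CPM in watered and 77.9, 54.5 and 62.3 CPM in dry JAR1-OE. Only in JAR1-OE did the dry libraries lie clear of the watered ones. The log2 fold change there was 2.44 ± 0.42 (edgeR adjusted p = 2.15e-04). In jar1-11 it was 0.48 ± 0.42 and did not pass (edgeR adjusted p = 0.351). The WT call of 1.12 ± 0.41 (edgeR adjusted p = 0.0386) came with overlapping groups and ended without WT drought 2 (0.665), WT control 2 (0.135) or WT control 1 (0.102). The response of JAR1-OE exceeded that of jar1-11 by 1.96 ± 0.58 (edgeR adjusted p = 0.0169), which ended without jar1-11 control 1 (0.0577), and its difference from WT did not pass the test. GSTU18 was 9.79, 14.7 and 12.9 CPM in watered WT and 6.39, 10.0 and 5.40 CPM in dry WT, 14.0, 8.25 and 8.98 CPM in watered and 1.95, 1.47 and 2.08 CPM in dry jar1-11, and 21.5, 15.7 and 22.1 CPM in watered and 16.4, 7.81 and 15.0 CPM in dry JAR1-OE. The dry jar1-11 libraries lay below all others, with a log2 fold change of -2.53 ± 0.36 (edgeR adjusted p = 6.62e-06). In WT it was -0.77 ± 0.30 (edgeR adjusted p = 0.048), with overlapping groups, and the call ended without JAR1-OE drought 3 (0.0534), JAR1-OE control 3 (0.0544), JAR1-OE control 2 (0.0543), JAR1-OE control 1 (0.0559), jar1-11 drought 3 (0.0527), jar1-11 drought 1 (0.0556), jar1-11 control 3 (0.0518), WT drought 3 (0.18), WT drought 1 (0.119), WT control 3 (0.0969) or WT control 2 (0.15).

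In the 7-member array on chromosome 2 GSTU4 rose in all 3 genotypes. It stood at 32.3, 31.0 and 17.3 CPM in watered WT and 43.0, 164 and 168 CPM in dry WT. In jar1-11 it was 18.5, 16.8 and 23.4 CPM watered and 633, 956 and 472 CPM dry, and in JAR1-OE 24.7, 14.5 and 13.7 CPM watered and 91.6, 105 and 55.2 CPM dry. Dry libraries lay above watered ones in each genotype and the dry jar1-11 libraries lay above all others. GSTU4 rose on the log2 scale by 2.23 ± 0.41 in WT (edgeR adjusted p = 2.84e-04), 5.14 ± 0.46 in jar1-11 (edgeR adjusted p = 1.96e-08) and 2.25 ± 0.42 in JAR1-OE (edgeR adjusted p = 4.87e-04). The jar1-11 response exceeded that of WT by 2.91 ± 0.57 (edgeR adjusted p = 0.0034). GSTU5 was 164, 126 and 164 CPM in watered WT and 149, 395 and 157 CPM in dry WT, 81.7, 85.6 and 80.8 CPM in watered and 438, 468 and 294 CPM in dry jar1-11, and 92.6, 112 and 82.3 CPM in watered and 293, 300.4 and 181 CPM in dry JAR1-OE. The dry libraries lay above the watered ones in jar1-11 and JAR1-OE, and in WT WT drought 2 alone stood above the rest. It rose by 2.27 in jar1-11 and 1.43 in JAR1-OE on the log2 scale, with edgeR adjusted p of 3.96e-06 and 0.00137, and did not pass in WT at 0.63 (edgeR adjusted p = 0.104), where the groups overlapped.

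The remaining members of that array ranged from clear to barely read. GSTU7 was 15.4, 23.5 and 25.7 CPM in watered WT and 31.8, 34.7 and 52.0 CPM in dry WT, 21.0, 19.6 and 19.1 CPM in watered and 54.2, 58.5 and 38.1 CPM in dry jar1-11, and 12.2, 19.9 and 13.2 CPM in watered and 28.0, 22.6 and 16.0 CPM in dry JAR1-OE. Groups overlapped in JAR1-OE alone. It rose by 1.34 ± 0.25 in jar1-11 (edgeR adjusted p = 1.53e-04) and by 0.86 ± 0.25 in WT (edgeR adjusted p = 0.0107), the latter call ending without WT drought 3 (0.0825) or WT control 1 (0.0521). GSTU6 was 1.33, 0.817 and 0.992 CPM in watered WT and 0.691, 3.42 and 0.925 CPM in dry WT, 0.208, 0.295 and 0.339 CPM in watered and 3.31, 3.47 and 2.50 CPM in dry jar1-11, and 3.05, 5.40 and 4.65 CPM in watered and 7.75, 4.30 and 2.71 CPM in dry JAR1-OE. It was lowest in watered jar1-11 and rose there by 3.44 ± 0.65 (edgeR adjusted p = 1.73e-04), while watered JAR1-OE stood in or above the range of dry jar1-11. Watered jar1-11 held 6 GSTU6 reads in all. GSTU3 rose by 4.48 in jar1-11, and its calls of 2.79 in WT and 2.56 in JAR1-OE, with overlapping groups, ended in WT without JAR1-OE control 3 (0.0501), jar1-11 control 2 (0.051), WT drought 2 (0.448), WT control 3 (0.15), WT control 2 (0.0951) or WT control 1 (0.0566) and in JAR1-OE without JAR1-OE drought 2 (0.0779), JAR1-OE drought 1 (0.301), JAR1-OE control 3 (0.0931), JAR1-OE control 2 (0.13), JAR1-OE control 1 (0.12), jar1-11 drought 3 (0.055), jar1-11 control 3 (0.0522), jar1-11 control 2 (0.058), WT control 3 (0.051), WT control 2 (0.0571) or WT control 1 (0.0501). GSTU1 did not pass in any genotype. GSTU2 had 10 reads in dry and 0 in watered jar1-11, which is at least 3.71-fold when the empty group is given 3 reads in all. The reads in dry jar1-11 are those that admitted it to the test, so this is a description, and its call ended without JAR1-OE control 1 (not tested), jar1-11 drought 2 (0.0551), jar1-11 drought 1 (not tested), jar1-11 control 3 (0.0552), jar1-11 control 2 (0.0625) or jar1-11 control 1 (0.0785).

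**Figure D3:**
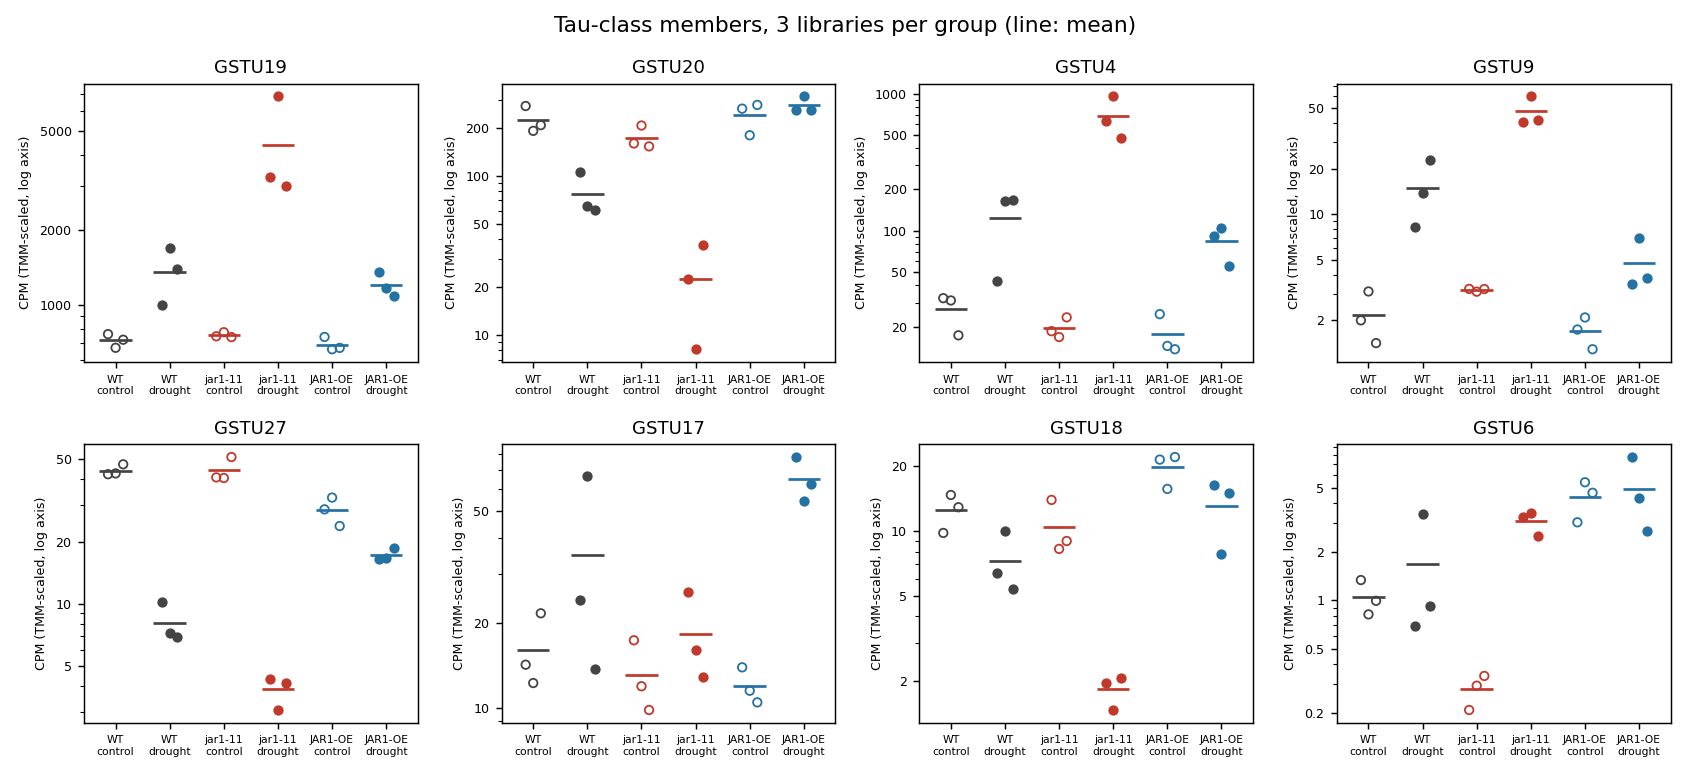
Level in CPM (log axis) of 8 tau members in each library (open circles watered, filled circles dry) with the group mean as a line. GSTU19, GSTU4 and GSTU9 are highest in dry jar1-11, GSTU20, GSTU18 and GSTU27 are lowest there, and GSTU17 is high in all 3 dry libraries of JAR1-OE.

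GSTU9 and GSTU27, which lie alone, changed in all 3 genotypes and in opposite directions. GSTU9 was 2.00, 3.10 and 1.42 CPM in watered WT and 8.29, 13.9 and 22.8 CPM in dry WT, 3.23, 3.09 and 3.22 CPM in watered and 40.9, 60.1 and 42.2 CPM in dry jar1-11, and 1.74, 2.09 and 1.29 CPM in watered and 3.49, 7.02 and 3.80 CPM in dry JAR1-OE. The dry groups were ordered jar1-11, WT, JAR1-OE without overlap. GSTU9 rose on the log2 scale by 2.79 ± 0.38 in WT (edgeR adjusted p = 8.46e-06), 3.90 ± 0.34 in jar1-11 (edgeR adjusted p = 1.45e-08) and 1.47 ± 0.41 in JAR1-OE (edgeR adjusted p = 0.0124), the last call ending without JAR1-OE drought 2 (0.0788) or JAR1-OE control 3 (0.0619). The difference from dry WT was 1.67 ± 0.29 in dry jar1-11 and -1.67 ± 0.33 in dry JAR1-OE, with edgeR adjusted p of 3.83e-04 and 0.0019. GSTU27 was 42.3, 42.6 and 47.2 CPM in watered WT and 10.2, 7.22 and 6.94 CPM in dry WT, 40.8, 40.5 and 51.2 CPM in watered and 4.36, 3.07 and 4.16 CPM in dry jar1-11, and 28.6, 32.6 and 23.8 CPM in watered and 16.5, 16.7 and 18.6 CPM in dry JAR1-OE. Here the dry groups ran in the reverse order, again without overlap. The log2 fold change was -2.45 ± 0.18 in WT (edgeR adjusted p = 5.18e-09), -3.52 ± 0.20 in jar1-11 (edgeR adjusted p = 5.65e-11) and -0.71 ± 0.17 in JAR1-OE (edgeR adjusted p = 0.00458). The JAR1-OE response differed from that of WT by 1.74 ± 0.25 (edgeR adjusted p = 6.75e-04). The jar1-11 response differed from that of WT by -1.07 ± 0.27 (edgeR adjusted p = 0.0147), which ended without jar1-11 drought 2 (0.0633) or WT drought 1 (0.0517). Leaf marker sums in the dry groups followed the same order as GSTU27.

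Among the other tau members, GSTU13, which acts in indole glucosinolate metabolism, was 115, 92.8 and 105 CPM in watered WT and 148, 129 and 162 CPM in dry WT, 99.1, 118 and 133 CPM in watered and 212, 192 and 228 CPM in dry jar1-11, and 63.1, 97.8 and 81.6 CPM in watered and 68.3, 96.8 and 85.9 CPM in dry JAR1-OE. Dry libraries lay above watered ones in WT and jar1-11 and overlapped with them in JAR1-OE. It rose by 0.86 ± 0.17 in jar1-11 (edgeR adjusted p = 3.71e-04), and the WT call of 0.49 ± 0.17 (edgeR adjusted p = 0.034) ended without WT drought 3 (0.124), WT drought 1 (0.0672), WT control 3 (0.0709) or WT control 2 (0.123). GSTU26 was 6.67, 6.86 and 9.50 CPM in watered WT and 10.0, 8.74 and 9.40 CPM in dry WT, 11.6, 7.37 and 12.4 CPM in watered and 4.51, 5.07 and 2.50 CPM in dry jar1-11, and 9.29, 11.9 and 6.07 CPM in watered and 9.56, 7.02 and 9.62 CPM in dry JAR1-OE. The dry jar1-11 libraries lay below all others. In jar1-11 the log2 fold change was -1.34 ± 0.29 (edgeR adjusted p = 6.80e-04) and passed in neither other genotype. GSTU10 was 6.87, 6.63 and 7.96 CPM in watered and 48.7, 183 and 52.4 CPM in dry jar1-11, and GSTU11 was 0.625, 2.80 and 2.20 CPM in watered and 19.7, 73.0 and 19.5 CPM in dry jar1-11. In both members jar1-11 drought 2 was over 3 times as high as either other dry library, and all 3 dry libraries lay above every watered one. They rose in jar1-11 by 3.73 ± 0.64 (edgeR adjusted p = 6.02e-05) and 4.40 ± 0.81 (edgeR adjusted p = 1.31e-04) and did not pass in WT or JAR1-OE. Without jar1-11 drought 2 the values were 2.84 ± 0.58 and 3.46 ± 0.81, with edgeR adjusted p = 5.40e-04 and adjusted p = 0.00173. GSTU16 rose in JAR1-OE by 1.00 and GSTU23 fell in jar1-11 and WT, with log2 fold changes of -2.95 and -2.02, and the WT call ended without WT drought 2 (0.0539) or WT control 3 (0.0962). Dry jar1-11 held 4 GSTU23 reads in all. GSTU8 fell in WT at -1.86, which ended without WT drought 3 (0.0686), WT drought 1 (0.0635) or WT control 2 (0.149). GSTU24 and GSTU25, known for TNT detoxification, and GSTU12 did not pass in any genotype. GSTU28 had 17 reads in dry and 0 in watered jar1-11, which is at least 6.30-fold with the same floor. The reads in dry jar1-11 again admitted it to the test, and the fold is a description.

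Of the phi class, GSTF9 was the most abundant member in watered WT. It stood at 2617, 2882 and 2974 CPM in watered WT and 3821, 3923 and 3852 CPM in dry WT, 3337, 2930 and 2790 CPM in watered and 2610, 3212 and 3179 CPM in dry jar1-11, and 2235, 2371 and 2363 CPM in watered and 3902, 4454 and 4409 CPM in dry JAR1-OE. Dry libraries lay above watered ones in WT and JAR1-OE and among them in jar1-11. It rose in JAR1-OE by 0.87 ± 0.14 (edgeR adjusted p = 1.23e-04) and in WT by 0.45 ± 0.14 (edgeR adjusted p = 0.0163), the WT call ending without WT drought 2 (0.057). In jar1-11 it did not pass, at -0.01 ± 0.14 (edgeR adjusted p = 0.966). GSTF10 (ERD13), its neighbour, was 1027, 1240 and 1511 CPM in watered WT and 1611, 1776 and 1823 CPM in dry WT, 1777, 1574 and 1384 CPM in watered and 1389, 1450 and 1514 CPM in dry jar1-11, and 1151, 1444 and 1262 CPM in watered and 1338, 1332 and 1473 CPM in dry JAR1-OE. Watered and dry libraries were apart in WT and overlapped in jar1-11 and JAR1-OE. Its only call, 0.46 ± 0.16 in WT (edgeR adjusted p = 0.0267), ended without WT drought 3 (0.0823), WT drought 2 (0.0769), WT control 2 (0.0645) or WT control 1 (0.0936).

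GSTF2, which binds ligands such as camalexin, was 1862, 1556 and 1421 CPM in watered WT and 171, 313 and 334 CPM in dry WT. In jar1-11 it was 1864, 1529 and 2008 CPM watered and 481, 2437 and 595 CPM dry, with jar1-11 drought 2 above all watered libraries and the other dry ones below them. In JAR1-OE it was 1573, 1438 and 1674 CPM watered and 812, 612 and 631 CPM dry. In WT and JAR1-OE the groups were apart. The log2 fold change in WT was -2.56 ± 0.43 (edgeR adjusted p = 9.55e-05). In jar1-11 it did not pass, at -0.62 ± 0.40 (edgeR adjusted p = 0.205), but without jar1-11 drought 2 it was called lower at -1.73 ± 0.25 (edgeR adjusted p = 1.51e-05). The JAR1-OE value of -1.19 ± 0.41 (edgeR adjusted p = 0.0375) ended as a call without JAR1-OE drought 3 (0.105), JAR1-OE drought 2 (0.109), JAR1-OE drought 1 (0.0556), JAR1-OE control 3 (0.097), JAR1-OE control 2 (0.0639) or JAR1-OE control 1 (0.0785). GSTF3 was 12.9, 10.9 and 6.09 CPM in watered WT and 0.691, 1.39 and 2.93 CPM in dry WT, 7.81, 6.48 and 14.7 CPM in watered and 8.41, 24.0 and 9.36 CPM in dry jar1-11, and 9.29, 10.5 and 8.65 CPM in watered and 3.23, 2.55 and 1.90 CPM in dry JAR1-OE. It fell in WT and JAR1-OE with no overlap, with log2 fold changes of -2.54 ± 0.50 (edgeR adjusted p = 4.93e-04) and -1.87 ± 0.46 (edgeR adjusted p = 0.00503), and its jar1-11 response lay 3.10 ± 0.64 above that of WT (edgeR adjusted p = 0.00458). Without jar1-11 drought 2 that difference was 2.45 ± 0.57 (edgeR adjusted p = 0.0159).

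GSTF6 (ERD11), which acts in camalexin synthesis, was 267, 383 and 455 CPM in watered WT and 108, 276 and 308 CPM in dry WT. In jar1-11 it was 529, 359 and 469 CPM watered and 845, 1709 and 667 CPM dry, and in JAR1-OE 324, 288 and 302 CPM watered and 246, 275 and 264 CPM dry. The dry jar1-11 libraries lay above all others. The change was 1.25 ± 0.33 in jar1-11 (edgeR adjusted p = 0.00367) and did not pass in WT (-0.67, edgeR adjusted p = 0.121) or JAR1-OE (-0.22, edgeR adjusted p = 0.674). The jar1-11 response exceeded that of WT by 1.92 ± 0.47 (edgeR adjusted p = 0.012). Its neighbour GSTF7 was called in jar1-11 alone at 1.72, which ended without jar1-11 drought 2 (0.165). GSTF8, a member known to respond to oxidative stress, was 467, 279 and 399 CPM in watered WT and 82.6, 126 and 141 CPM in dry WT, 315, 306 and 312 CPM in watered and 161, 211 and 128 CPM in dry jar1-11, and 325, 266 and 313 CPM in watered and 222, 187 and 196 CPM in dry JAR1-OE. Every dry library lay below the watered ones of its genotype. Log2 fold changes were -1.71 ± 0.22 in WT (edgeR adjusted p = 3.91e-06) and in jar1-11 -0.90 ± 0.21 (edgeR adjusted p = 0.00138). The JAR1-OE value of -0.58 ± 0.21 (edgeR adjusted p = 0.049) ended as a call without JAR1-OE drought 3 (0.121), JAR1-OE drought 2 (0.137), JAR1-OE drought 1 (0.0641), JAR1-OE control 3 (0.13), JAR1-OE control 2 (0.0544), JAR1-OE control 1 (0.137), jar1-11 drought 1 (0.0584), jar1-11 control 3 (0.0644), jar1-11 control 2 (0.0668), jar1-11 control 1 (0.0602), WT drought 3 (0.0502), WT drought 2 (0.0623) or WT control 3 (0.0613).

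GSTF11, which like GSTU20 acts in aliphatic glucosinolate synthesis, was 5.34, 5.88 and 9.78 CPM in watered WT and 7.60, 3.67 and 2.62 CPM in dry WT. In jar1-11 it was 6.25, 8.99 and 3.90 CPM watered and 0.601, 0.668 and 1.25 CPM dry, and in JAR1-OE 6.53, 9.76 and 10.7 CPM watered and 16.3, 22.5 and 13.7 CPM dry. Dry jar1-11 lay below every other library and dry JAR1-OE above every other. The log2 fold change was -2.97 ± 0.49 in jar1-11 (edgeR adjusted p = 4.32e-05) and did not pass in WT at -0.64 ± 0.38 (edgeR adjusted p = 0.205). The JAR1-OE rise of 0.95 ± 0.34 (edgeR adjusted p = 0.0432) ended as a call without JAR1-OE drought 2 (0.175), JAR1-OE drought 1 (0.0716), JAR1-OE control 3 (0.0573), JAR1-OE control 2 (0.0752), JAR1-OE control 1 (0.17) or jar1-11 control 1 (0.0532). Dry JAR1-OE exceeded dry jar1-11 by 4.42 ± 0.46 (edgeR adjusted p = 3.80e-07). GSTF12 (TT19), which carries anthocyanins to the vacuole, was 7.79, 13.9 and 24.9 CPM in watered WT and 164, 136 and 75.2 CPM in dry WT, 32.0, 14.9 and 14.9 CPM in watered and 109, 65.3 and 93.6 CPM in dry jar1-11, and 4.06, 5.06 and 1.55 CPM in watered and 62.8, 61.2 and 40.8 CPM in dry JAR1-OE. It rose in all 3 genotypes without overlap, by 2.97 ± 0.41 in WT (edgeR adjusted p = 1.03e-05), 2.10 ± 0.39 in jar1-11 (edgeR adjusted p = 1.51e-04) and 3.98 ± 0.47 in JAR1-OE (edgeR adjusted p = 3.26e-06). The watered JAR1-OE libraries were the lowest of all.

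**Figure D4:**
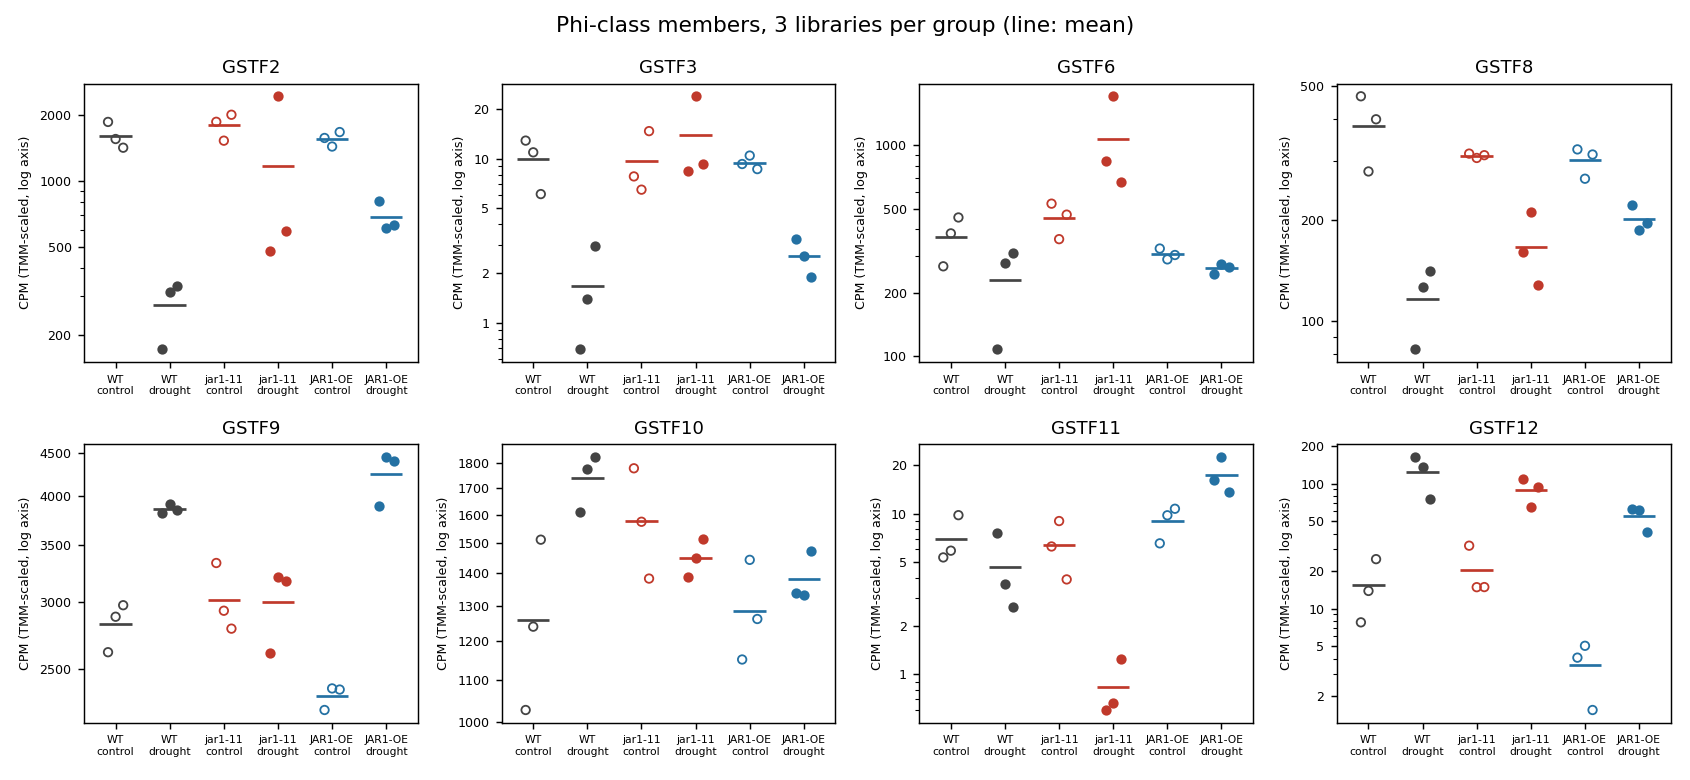
Level in CPM (log axis) of 8 phi members in each library (open circles watered, filled circles dry) with the group mean as a line. GSTF12 is higher in every dry group, GSTF11 splits dry jar1-11 from dry JAR1-OE, and jar1-11 drought 2 is the highest library for GSTF2, GSTF3 and GSTF6.

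Of the lambda members, GSTL1 was 2.45, 1.63 and 2.69 CPM in watered WT and 0.345, 1.52 and 2.93 CPM in dry WT, 1.98, 1.62 and 4.74 CPM in watered and 9.31, 36.5 and 11.4 CPM in dry jar1-11, and 2.47, 1.22 and 1.68 CPM in watered and 3.10, 1.59 and 0.678 CPM in dry JAR1-OE. The dry jar1-11 libraries lay above all others. It rose in jar1-11 by 2.83 ± 0.56 (edgeR adjusted p = 2.94e-04), or 1.94 ± 0.55 (edgeR adjusted p = 0.00687) without jar1-11 drought 2, and passed in neither other genotype. GSTL2 stood at 9.16 to 26.9 CPM and GSTL3 at 94.6 to 127 CPM over the 18 libraries, and neither passed in any genotype. Among theta members GSTT1 was 50.7, 72.5 and 71.0 CPM in watered WT and 106, 132 and 136 CPM in dry WT, 87.6, 84.2 and 72.5 CPM in watered and 135, 133 and 118 CPM in dry jar1-11, and 68.5, 60.7 and 63.8 CPM in watered and 93.3, 84.8 and 97.9 CPM in dry JAR1-OE. Dry libraries lay above watered ones in every genotype. It rose by 0.94 ± 0.15 in WT (edgeR adjusted p = 7.14e-05), 0.66 ± 0.15 in jar1-11 (edgeR adjusted p = 0.00113) and 0.52 ± 0.15 in JAR1-OE (edgeR adjusted p = 0.0164), the last call ending without JAR1-OE drought 3 (0.0647) or JAR1-OE control 2 (0.055). GSTT2 was 4.21, 3.66 and 4.65 CPM in watered and 6.07, 7.33 and 8.00 CPM in dry JAR1-OE, 5.72 to 9.50 CPM in WT and 4.94 to 9.15 CPM in jar1-11. Its JAR1-OE rise of 0.76 ± 0.25 (edgeR adjusted p = 0.0329) ended as a call without JAR1-OE drought 3 (0.113), JAR1-OE drought 2 (0.0744), JAR1-OE control 3 (0.0509), JAR1-OE control 2 (0.0936) or JAR1-OE control 1 (0.0794). In jar1-11 GSTT2 did not pass at 0.33 ± 0.25 (edgeR adjusted p = 0.265), and without jar1-11 drought 2 it passed at 0.60 ± 0.23 (edgeR adjusted p = 0.0426). GSTT3 stood at 5.01 to 11.2 CPM over the 18 libraries and did not pass for drought in any genotype. GSTZ2 had 10 reads in all, at most 0.581 CPM in any library.

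Few members passed between watered plants. Against WT, jar1-11 showed 0 members past the edgeR threshold, while 0.00506% of all genes passed, which is JAR1 alone. At an unadjusted p under 0.05 there were 4 members, and DESeq2 and limma-voom also called 0. JAR1-OE differed from WT in 4 members (10.3% against 8.94% of all genes), with 1 higher (4.35% of all genes), GSTU6 by 2.06, and 3 lower (4.59%), GSTF12, GSTU27 and GSTT2 at -2.19, -0.64 and -0.87. Each call ended with some single library left out, GSTU6 without JAR1-OE control 3 (0.0694), JAR1-OE control 2 (0.0511), WT control 3 (0.0603) or WT control 2 (0.0565), GSTF12 without JAR1-OE control 3 (0.0622) or WT control 3 (0.052), GSTU27 without JAR1-OE control 3 (0.131), JAR1-OE control 1 (0.0861) or WT control 3 (0.0683) and GSTT2 without JAR1-OE drought 3 (0.0505), JAR1-OE control 3 (0.0922), JAR1-OE control 2 (0.104), JAR1-OE control 1 (0.126), jar1-11 control 3 (0.0536), jar1-11 control 2 (0.0568), jar1-11 control 1 (0.0521), WT drought 2 (0.0548), WT control 3 (0.121) or WT control 1 (0.129), with the edgeR adjusted p in brackets. The count fell to 0 without WT control 3 or JAR1-OE control 3 and to 2 without JAR1-OE control 1. JAR1-OE differed from watered jar1-11 in 4 members (10.3% against 8.85%), 2 higher (5.09% of all genes) and 2 lower (3.76%), of which GSTU6 at 3.92 and GSTF12 at -2.58 were called in every leave-one-out. GSTU18 at 0.91 ended without JAR1-OE drought 3 (0.054), JAR1-OE control 3 (0.147), JAR1-OE control 1 (0.152), jar1-11 drought 1 (0.0545), jar1-11 control 3 (0.164) or jar1-11 control 2 (0.151), GSTU27 at -0.64 ended without JAR1-OE control 3 (0.132), JAR1-OE control 1 (0.0761) or jar1-11 control 3 (0.135), and the count was 2 without jar1-11 control 3, JAR1-OE control 1 or JAR1-OE control 3.

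More members passed between droughted plants. Dry jar1-11 differed from dry WT in 18 of 39 members (46.2% against 30.9% of all genes), 13 higher (14.1% of all genes) and 5 lower (16.8%), and 15 of these were called whichever library was left out. The largest rise among them was 3.81 ± 0.76 for GSTU11 (edgeR adjusted p = 0.00104), and GSTF3, GSTU10 and GSTL1 also differed by over 3 on the log2 scale. Without jar1-11 drought 2 the value was 2.90 ± 0.78 for GSTU11 (edgeR adjusted p = 0.0143), 2.40 ± 0.45 for GSTF3, 2.36 ± 0.57 for GSTU10 and 2.68 ± 0.58 for GSTL1, all still called. GSTU18, GSTU20, GSTU27, GSTF11 and GSTU26 were lower. The calls that ended were GSTU3 without jar1-11 drought 2 (0.0649), GSTU13 without jar1-11 drought 3 (0.0637), jar1-11 drought 1 (0.0593), WT drought 2 (0.0876) or WT drought 1 (0.0651) and GSTU24 without jar1-11 drought 2 (0.227), WT drought 2 (0.0882) or WT drought 1 (0.116). Without jar1-11 drought 2 the count was 16, and without it and WT drought 1 it was 13. Dry JAR1-OE differed from dry WT in 10 members (25.6% against 13.9%). GSTU27, GSTU20, GSTF11, GSTF8, GSTF2 and GSTU6 were the 6 higher (8.09% of all genes) and GSTU9, GSTU13, GSTU7 and GSTF12 the 4 lower (5.79%). GSTF8 ended without JAR1-OE drought 1 (0.0692) or WT drought 1 (0.0689), GSTF2 without JAR1-OE drought 3 (0.0603), JAR1-OE drought 2 (0.0576), JAR1-OE drought 1 (0.114), WT drought 3 (0.0607), WT drought 2 (0.0652) or WT drought 1 (0.109), GSTU6 without JAR1-OE drought 2 (0.0637), JAR1-OE drought 1 (0.253), JAR1-OE control 3 (0.0502), jar1-11 drought 1 (0.0519), jar1-11 control 1 (0.0509), WT drought 3 (0.17) or WT drought 1 (0.121), GSTU7 without JAR1-OE drought 3 (0.138), JAR1-OE drought 2 (0.0709), WT drought 3 (0.223) or WT drought 2 (0.053) and GSTF12 without JAR1-OE drought 3 (0.141), JAR1-OE drought 2 (0.0725), JAR1-OE drought 1 (0.0739), jar1-11 drought 3 (0.0537), jar1-11 control 2 (0.0516), WT drought 2 (0.116), WT drought 1 (0.112) or WT control 2 (0.0532). The count was 6 without JAR1-OE drought 1. Dry JAR1-OE differed from dry jar1-11 in 25 members (64.1% against 49.8%), 9 higher (26.2% of all genes) and 16 lower (23.6%), and in 22 without jar1-11 drought 2. Of the 25, 19 were called whichever library was left out. The calls of GSTU24, GSTT1, GSTU3, GSTU28, GSTU16 and GSTT3 each ended with some single library left out. One of the 16 is GSTU28, which its reads in dry jar1-11 admitted, and without it, GSTU2 and GSTU25 the count was 24 of 36. These 3 comparisons share dry groups. Leaf marker sums lay lowest in dry jar1-11 and highest in dry JAR1-OE.

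The drought response itself differed between jar1-11 and WT in 13 members (33.3% against 13.7% of all genes), 9 with a higher value in jar1-11 (5.72% of all genes) and 4 with a lower one (8.01%). GSTU4, GSTF3, GSTU19, GSTF6, GSTU26 and GSTU5 were called in every leave-one-out. For GSTU5, jar1-11 against WT did not pass in dry plants (0.77, edgeR adjusted p = 0.051). In watered plants it did not pass either (-0.87, edgeR adjusted p = 0.911). GSTU18 ended without jar1-11 drought 2 (0.0716), jar1-11 control 1 (0.0571) or WT drought 2 (0.0621), GSTU10 without jar1-11 drought 2 (0.0763) or WT control 2 (0.0689), GSTF11 without jar1-11 drought 2 (0.0763), jar1-11 drought 1 (0.0547), jar1-11 control 2 (0.0607) or WT drought 1 (0.0675), GSTL1 without jar1-11 drought 2 (0.078), jar1-11 control 2 (0.0533), jar1-11 control 1 (0.0533) or WT control 3 (0.0556), GSTF7 without jar1-11 drought 2 (0.125), jar1-11 control 2 (0.077), WT drought 1 (0.0565), WT control 3 (0.0564) or WT control 2 (0.0689) and GSTF2 without jar1-11 drought 2 (0.111), jar1-11 control 2 (0.0757), jar1-11 control 1 (0.0596), WT drought 1 (0.0776) or WT control 1 (0.0533). The count was 6 without jar1-11 drought 2 and 9 without WT drought 1. JAR1-OE and WT differed in 3 members (7.69% against 5.02%), GSTU27, GSTU20 and GSTF8, each with a higher log2 value in JAR1-OE (3.51% of all genes, against 1.51% lower), and GSTU27 alone was called in every leave-one-out. The count was 1 without WT control 1 or any of the 6 JAR1-OE libraries. JAR1-OE and jar1-11 differed in 20 members (51.3% against 27.2%), 9 higher in JAR1-OE (15.8% of all genes) and 11 lower (11.4%), and in 16 without jar1-11 drought 2, which ended the calls of GSTF6, GSTU11, GSTL1 and GSTF12. These differences use shared groups and are not independent of each other.

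Neighbours in an array did not always move together. In WT 2 pairs of adjacent called members moved oppositely, GSTU20 with GSTU19 and GSTU18 with GSTU17, and 2 moved the same way. Of these WT pairs, only GSTU20 with GSTU19 was called whichever library was left out. The gene models of GSTU18 and GSTU17 also overlap, which makes their counts uncertain. In jar1-11 1 pair, GSTU20 with GSTU19, was opposite and 5 moved the same way, 4 of them in the 7-member array. The other, GSTF7 with GSTF6, rests on a GSTF7 call that ended without jar1-11 drought 2. GSTU3 with GSTU2 is not counted, since GSTU2 passed the read filter only through dry jar1-11. In JAR1-OE both called pairs moved the same way, and GSTU4 with GSTU3 rests on a GSTU3 call that leaving out a single library ended. Adjacent genes outside the family were not counted.

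**Figure D5:**
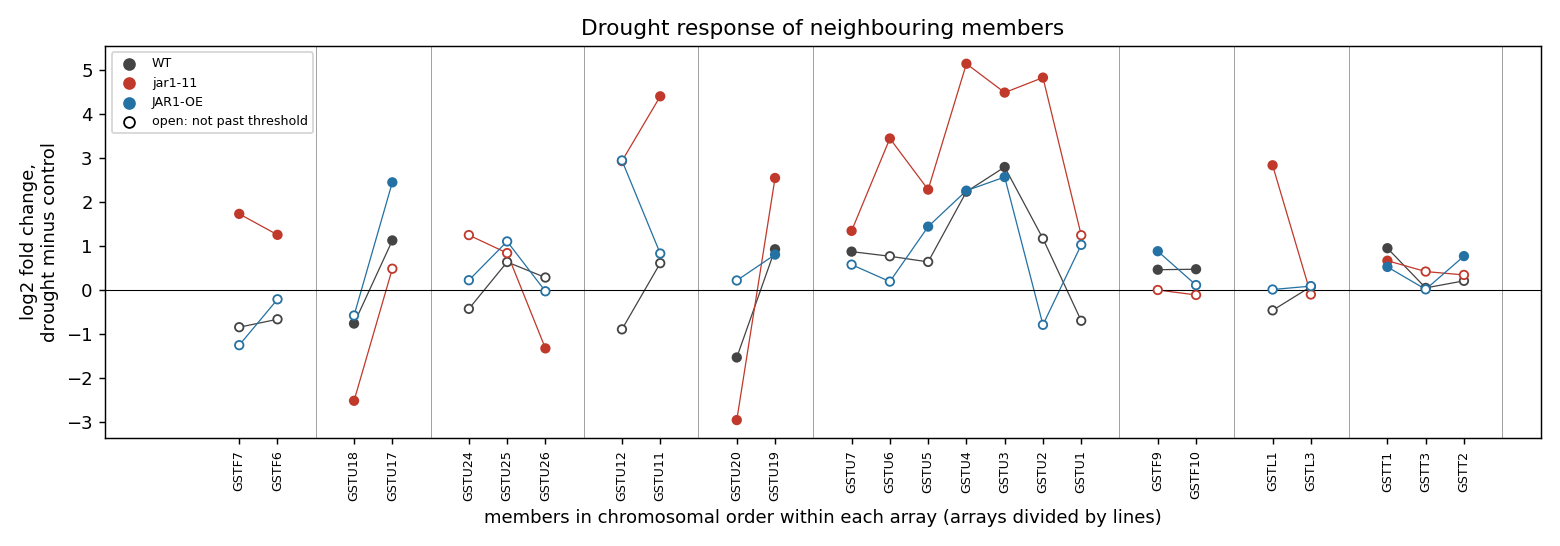
Log2 fold change of drought against control for tested members in chromosomal order within each array, by genotype, with filled points past the edgeR threshold. Arrays with fewer than 2 tested members are left out; GSTU19 and GSTU20 diverge in WT and jar1-11, and the array from GSTU7 to GSTU1 is mostly higher in dry jar1-11.

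Genes around the family were counted by lists drawn from general knowledge, chosen with earlier results of these data known and not tested as lists. Their counts are to be read against all genes tested, of which 16.6% rose and 18.8% fell in WT, 25.9% and 27.7% in jar1-11, and 12.4% and 13.6% in JAR1-OE. Of the 14 tested genes of glutathione synthesis and turnover, 3 rose and 6 fell in dry WT, 3 rose and 7 fell in jar1-11, and 1 rose and 3 fell in JAR1-OE, with GSH2, glutathione synthetase, lower in each (-1.48, -2.16 and -1.24). ATGR1, a glutathione reductase, rose in WT by 1.06 and in jar1-11 by 2.77. Of the 3 vacuolar ABCC transporters, 1 rose in WT, 3 in jar1-11 and 1 in JAR1-OE. Of 7 genes for TGA factors and their partner SCL14, 4 rose in WT, 5 in jar1-11 and 2 in JAR1-OE. Of 7 xenobiotic and oxylipin response genes outside the family, 3 rose and 1 fell in WT, 5 rose and 1 fell in jar1-11, and 4 rose and 1 fell in JAR1-OE, led by NAC032 in WT at 4.27 and UGT74E2 in jar1-11 at 6.53. UGT74E2 was barely read in watered jar1-11, at 0.104, 0.295 and 0 CPM, so the size of its fold is uncertain. Dry JAR1-OE was lower than dry jar1-11 in all 7 of the last list, against 23.6% of all genes. Of the 8 glutathione peroxidase-like genes, 1 rose and 2 fell in WT, 2 rose and 1 fell in jar1-11, and 1 rose and 1 fell in JAR1-OE. Of the 6 sulfate reduction and cysteine synthesis genes, 2 rose and 4 fell in WT, 3 rose and 2 fell in jar1-11, and by edgeR 0 passed in JAR1-OE, where 3 had an unadjusted p under 0.05. Of the 4 other glutathione transferase relatives, 2 rose in WT, 1 rose and 2 fell in jar1-11, and 1 rose in JAR1-OE. Outside the naming rule, ATGSTZ1, the zeta-class maleylacetoacetate isomerase, rose in WT by 1.02, in jar1-11 by 1.95 and in JAR1-OE by 1.42.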

How the data were processed

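Rosette-leaf RNA of 18 Arabidopsis samples was measured, in 6 groups of 3 taken from the labels. Dry samples, which the labels number 4 to 6, are called 1 to 3 here in the same order. Per the labels' protocols, libraries were made with a QuantSeq 3' kit and sequenced in single reads, and the replicates are biological. The deposited counts are, per the file headers, unique gene reads, whole numbers that were not normalized. The sources used here do not give the aligner, counter, strand setting or genome build. All 45 members had a length equal to their span in TAIR10.1, which gave positions and promoters.

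Counts were scaled by TMM, and genes with 20 or more reads over the 18 libraries were kept (19752 tested, 7903 not). EdgeR 4.0.16 in R 4.3.3 fitted 1 mean per group over all 18 libraries. Its quasi-likelihood F-test was run for 12 comparisons with Benjamini-Hochberg adjustment over all genes tested and a threshold of 0.05. SEs are the absolute log2 fold change over the square root of F. The biological coefficient of variation was 20.1%. The fit was tested on simulated data. The 1 entry without a gene identifier, YFP-JAR1, stayed out of totals and tests.

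Members and lists were chosen with earlier results of these data known. Full values are given for the 3 most abundant tau and phi members in watered WT, up to 3 members per direction with the smallest p in each comparison, and members called in opposite directions. Lambda, theta and zeta members are named with their values. Folds against 0 reads use a floor of 3 reads over the group and cover counting error only. Pairs of replicates gave chi-square values of 5.54 to 27.9 per degree of freedom, so none was a repeat of another. The highest, 26.8 and 27.9, were those of WT control 1 against its replicates. The jar1-11 drought 2 library gave 23.3 and 20.6. Alternatives tried were DESeq2 1.42.0, RLE scaling, filterByExpr, limma-voom 3.58.1, no filter, only the groups compared, a replicate block within each condition, CPM by library total for class sums and each library left out. Leaving out WT drought 1 and jar1-11 drought 2 together was chosen after seeing the data.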

Additional observations from a re-analysis of the deposited data

Results flagged for a closer look

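A difference between genotypes in the drought response, tested as an interaction in edgeR, marked 36 values, each given as the difference of log2 fold changes. Higher and lower refer to the signed log2 fold change, so higher can also mean a smaller fall and lower a larger one.

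Between jar1-11 and WT the response was higher in jar1-11 for GSTU4 (2.91), GSTF3 (3.10), GSTU19 (1.62), GSTF6 (1.92), GSTU5 (1.64), GSTU10 (3.34), GSTL1 (3.30), GSTF7 (2.58) and GSTF2 (1.94). It was lower for GSTU26 (-1.61), GSTU27 (-1.07), GSTU18 (-1.76) and GSTF11 (-2.34). Of these 13 calls, 6 were made whichever library was left out, and 6 members were called without jar1-11 drought 2. Leaving out that library ended GSTU10 (0.0763), GSTL1 (0.078), GSTF7 (0.125) and GSTF2 (0.111), with the edgeR adjusted p in brackets. It likewise ended GSTU27 (0.0633), GSTU18 (0.0716) and GSTF11 (0.0763).

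Between JAR1-OE and WT the log2 fold change was higher in JAR1-OE for GSTU27 (1.74), GSTF8 (1.13) and GSTU20 (1.75). GSTU27 and GSTF8 fell in both genotypes, and less in JAR1-OE, while GSTU20 fell in WT and did not pass in JAR1-OE. Only the GSTU27 call was made whichever library was left out.

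Between JAR1-OE and jar1-11 it was higher in JAR1-OE for GSTU27 (2.81), GSTU20 (3.18), GSTF11 (3.93), GSTF9 (0.88), GSTU18 (1.94), GSTU16 (0.89), GSTU17 (1.96), GSTU26 (1.30) and GSTF12 (1.88). It was lower for GSTU19 (-1.74), GSTU4 (-2.89), GSTU9 (-2.43), GSTU6 (-3.25), GSTF3 (-2.43), GSTF7 (-2.99), GSTU10 (-3.71), GSTU13 (-0.81), GSTF6 (-1.47), GSTL1 (-2.83) and GSTU11 (-3.58). These comparisons share groups, and 12 of the 20 calls were made whichever library was left out.

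The YFP-JAR1 entry, which is outside the main measurement, held 1340 reads over the 6 JAR1-OE libraries and 0 reads in the 12 others.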

How the results depend on the processing

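Among the results recomputed, no value reversed under the alternatives run, RLE scaling among them. Under alternatives other than leaving out 1 library, values of single members kept their call 437 times and lost it 17 times. These were up to 3 called members per direction with the smallest p in each comparison. No call could be gained among them, and weaker calls are not covered. The response difference between JAR1-OE and WT counted 5 members by DESeq2 and 6 without WT drought 1 and jar1-11 drought 2, against 3. With both libraries left out, that between jar1-11 and WT counted 5, against 13. With only the groups compared, watered JAR1-OE against WT counted 2, against 4. The phi sum of watered JAR1-OE was 5649 CPM by library total, against 5855. The cause was not tested.

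With 1 library left out in turn, members called ranged from 13 to 19 for drought in WT, 23 to 26 in jar1-11 and 9 to 17 in JAR1-OE. Between watered plants the range was 0 to 0 for jar1-11 against WT, 0 to 5 for JAR1-OE against WT and 2 to 5 for JAR1-OE against jar1-11, and between dry plants 16 to 21, 6 to 12 and 22 to 26 in the same order. For the response differences it was 6 to 16, 1 to 4 and 15 to 21.

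The labels number watered samples 1 to 3 and dry samples 4 to 6, so a number is shared between genotypes within a condition only. No paired analysis was possible for drought against control because those groups share no number. Within a condition the correlations of same-numbered pairs ran from -0.481 to 0.237, and 4 of 18 were above 0.1. Differently numbered pairs were not compared, so whether the numbers pair the samples was not tested. With the number as a replicate block the calls were 0, 2 and 2 between watered plants (against 0, 4 and 4), 19, 7 and 25 between dry plants (against 18, 10 and 25) and 12, 1 and 20 for the response differences (against 13, 3 and 20). Depth limits GSTU2, GSTU12, GSTU25 and GSTU28, whose groups hold few reads. It also limits the folds of GSTU6 that use watered jar1-11 (6 reads) and those of GSTU23 that use dry jar1-11 (4 reads).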

Other observations

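Of the 4 entries spelled with an AT prefix, which the naming rule leaves out, ATGSTF4 fell with drought in WT by -1.08 and in jar1-11 by -1.98 on the log2 scale (edgeR), ATGSTF5 passed in no genotype, ATGSTU21 had 0 reads in all libraries, and ATGSTZ1 is given in the report.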
